A study of Mus musculus with 6 samples.

Results

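The genes described here encode the 4 Argonaute proteins (Ago1 to Ago4), the 3 TNRC6 scaffold proteins (Tnrc6a, Tnrc6b and Tnrc6c) and 3 proteins that cut or bind microRNA precursors (Dicer1, Drosha and Dgcr8). They were found by name, as probe sets whose only annotated gene symbol was one of these 10, which gave 11 probe sets for 10 genes out of 19937 genes measured in the same way. Ago2 had 2 such probe sets and the other members 1 each. RNA came from mouse embryonic stem cells on 6 single-colour Affymetrix arrays, 3 of Trim71 knockdown cells and 3 of control cells. The knockdown cells received 3 siRNAs against Trim71 by lipid transfection. A harvest time of 72 h is given for all 6 arrays. The protocol names a non-targeting siRNA as the negative control, while the genotype fields call the control arrays wild type. The control titles read only mES cells with a replicate number, so the labels do not settle whether the control cells were transfected. The labels name no cell line and do not tell whether replicates came from separate cultures, so the p-values cover only the scatter of these samples, which could be technical.

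In the nucleus, Drosha and its RNA-binding partner Dgcr8 cut primary microRNA transcripts into hairpins, and Dicer1 trims the hairpins in the cytoplasm to short duplexes. An Argonaute protein holds 1 strand of the duplex and pairs it with target mRNAs. TNRC6 proteins, also known as GW182 proteins, bind Argonautes through glycine-tryptophan repeats and recruit the deadenylase complexes that silence the target. In mouse embryonic stem cells, loss of Dgcr8 or Dicer1 is known to slow proliferation and to impair differentiation. Trim71 (Lin41) belongs to the TRIM-NHL proteins, binds RNA, carries a RING domain and has been reported to associate with Ago2.

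The TNRC6 genes held the paralog pair whose difference changed most between the groups, so the DNA just before an annotated start of each is shown. Each sequence holds the 250 bases upstream of a start in RefSeq (build GRCm38.p6, plus strand), written 5′ to 3′, with CG dinucleotides in capitals. The windows lie at chr7:123123635-123123884 for Tnrc6a, at chr15:80711063-80711312 for Tnrc6b and at chr11:117654039-117654288 for Tnrc6c.
Tnrc6a: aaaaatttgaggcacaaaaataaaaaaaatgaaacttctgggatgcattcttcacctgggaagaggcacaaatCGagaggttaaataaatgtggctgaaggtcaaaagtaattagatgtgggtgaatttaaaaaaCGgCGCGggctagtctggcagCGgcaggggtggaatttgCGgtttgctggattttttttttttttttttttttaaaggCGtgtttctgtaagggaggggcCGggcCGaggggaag
Tnrc6b: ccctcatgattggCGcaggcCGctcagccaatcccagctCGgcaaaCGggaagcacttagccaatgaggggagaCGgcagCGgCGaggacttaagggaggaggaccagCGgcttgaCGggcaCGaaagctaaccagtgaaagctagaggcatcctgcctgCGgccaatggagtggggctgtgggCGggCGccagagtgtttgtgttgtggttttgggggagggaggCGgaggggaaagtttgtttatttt
Tnrc6c: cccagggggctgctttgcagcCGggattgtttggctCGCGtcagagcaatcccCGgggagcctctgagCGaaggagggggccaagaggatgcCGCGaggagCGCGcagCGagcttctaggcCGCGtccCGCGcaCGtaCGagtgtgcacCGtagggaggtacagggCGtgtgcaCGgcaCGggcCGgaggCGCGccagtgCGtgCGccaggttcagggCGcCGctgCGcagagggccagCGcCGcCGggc
The Tnrc6c window held 31 CG dinucleotides, the Tnrc6b window 14 and the Tnrc6a window 9. Among 32851 such windows of mouse genes the median was 6, and 5.19% held at least 31. Tnrc6b has a further annotated start with 8 CG dinucleotides in its window, and the 11 windows found for 9 of the 10 members held between 8 and 46. The letters CCAAT, on either strand, occurred 4 times in the Tnrc6b window shown and not in those of Tnrc6a and Tnrc6c, and 33.8% of all windows held them. In that annotation the Tnrc6a and Tnrc6c genes begin further upstream than the starts shown, and the start used in these cells is not known from the arrays. A match describes the letters only, and no match says only that they are not in this window. In the same annotation Ago3, Ago1 and Ago4 are direct neighbours in that order on chromosome 4, on the same strand and with 0 other genes between them.

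Values are log2 expression as deposited, and a difference is the knockdown mean minus the control mean on that scale. Group means are given with the SD over 3 arrays per group and differences with a standard error (SE). A change was called where the adjusted p of limma, a linear model fitted over all 19937 genes, was under 0.05. Array medians were between 6.26 and 6.31. Knockdown array 3 stood apart, with an upper quartile of 8.42 against 8.32 to 8.35 on the other 5 arrays. The targeted gene bore out the labels, since Trim71 read 9.00, 8.95 and 8.98 on the knockdown arrays and 10.48, 10.50 and 10.51 on the control arrays. Its remaining level was 34.9%, with an adjusted p of 2.8e-05 in limma and an exact two-sided permutation p of 0.1, the smallest that 3 against 3 arrays can give. All 9 stem cell markers examined, among them Pou5f1, Sox2 and Nanog, had mean log2 levels of at least 10.1, and the 8 fibroblast markers lay between 3.34 and 7.07. The mean over the 9 stem cell markers was 11.81 to 11.87 on knockdown arrays and 11.68 to 11.72 on control arrays. All 9 had a higher mean in knockdown cells, and 2 of the 9 (Zfp42 and Fgf4) were called higher, against 3.39% of all genes. At an unadjusted limma p under 0.05 there were 5 of the 9, against 19.0% of all genes. Of 4 neural markers, Pax6 was called lower (log2 difference -0.76, limma adjusted p = 0.00573) and Nes higher (0.27, limma adjusted p = 0.0497), and the mean over the 4 was 7.24 to 7.36 on knockdown arrays and 7.38 to 7.44 on control arrays. None of the 8 fibroblast, 5 primitive endoderm and 3 measured mesoderm markers was called by limma, with 0 of these 16 at an unadjusted p under 0.05. The part of these marker shifts in the results below was not tested. In bulk RNA, fewer cells with a transcript and less of it per cell cannot be told apart.

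Of the 10 members, 1 rose in the knockdown cells, the TNRC6 gene Tnrc6a, and 0 fell. Over all genes 3.39% rose and 2.15% fell, 5.53% in all, and a single call among 10 genes says nothing particular of the list. With arrays centred on their medians the count over all genes was 527 higher and 616 lower, against 675 higher and 428 lower on the deposited scale, and among the members 1 was higher and 1 lower. The 10 differences ran from -0.22 (Ago4) to 0.35 (Tnrc6a), 5 above and 5 below 0. The median size of the members' differences was 0.13, against 0.07 over all genes. At an unadjusted limma p under 0.05 there were 4 members, all 3 Tnrc6 genes and Ago4, where 19.0% of all genes passed. Knockdown and control values did not overlap for 7 of the 10, against 25.5% of all genes. All genes share these 6 arrays, and the share says nothing of any single member. The shares over all genes include dim genes, while 9 of the 10 members lay among the probe sets above the median level. Among those brighter genes 1131 were called higher and 771 lower of 9925, and the share without overlap was not counted there.

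**Figure D1:**
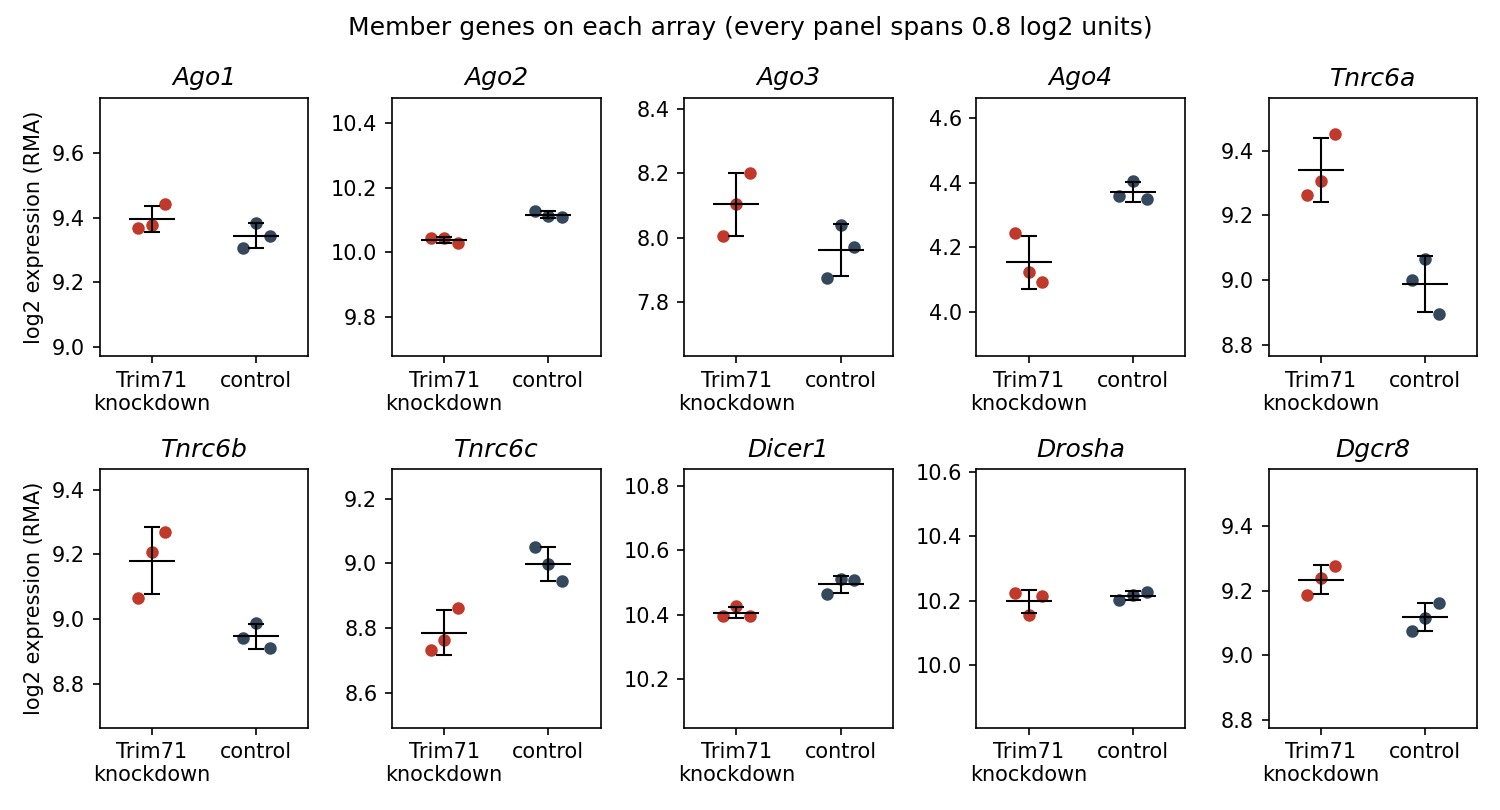
Log2 expression of each member on each array, with the 3 Trim71 knockdown arrays in red on the left and the 3 control arrays in dark blue on the right of each panel. Horizontal bars are group means with the SD, every panel spans 0.8 log2 units, and the largest differences between group means are those of Tnrc6a, Tnrc6b, Tnrc6c and Ago4.

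Tnrc6a, a scaffold that links Argonaute to deadenylation, read 9.26, 9.31 and 9.45 on the knockdown arrays and 9.00, 9.07 and 8.89 on the control arrays. All 3 knockdown values lay above all 3 control values, and knockdown array 3 was the highest. Tnrc6a rose 1.28-fold (log2 difference 0.35 ± 0.070 SE, limma adjusted p = 0.0307, 95% confidence interval of the fold 1.14 to 1.43). Without knockdown array 3 the difference was 0.30 and the call stood (limma adjusted p = 0.0436). It was lost without control array 1, 2 or 3 (limma adjusted p of 0.115, 0.0739 and 0.107) and without knockdown array 2 (0.0879), while the differences in the 6 fits with 1 array left out stayed between 0.30 and 0.39.

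Tnrc6b, the paralog with the same domain plan, read 9.07, 9.21 and 9.27 in knockdown cells and 8.94, 8.99 and 8.91 in control cells. All knockdown values lay above all control values, with knockdown array 1 the nearest to the control arrays. The difference of 0.23 ± 0.063 SE did not pass (limma adjusted p = 0.0854). Without knockdown array 1 it was 0.29 and passed (limma adjusted p = 0.0481). It passed in only this 1 of the 6 fits with 1 array left out, where the limma adjusted p reached 0.246.

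Tnrc6c, the third of the scaffolds, lay the other way. Its values were 8.73, 8.76 and 8.86 in knockdown cells and 9.05, 9.00 and 8.94 in control cells, again without overlap. The difference of -0.21 ± 0.056 SE did not pass (limma adjusted p = 0.0797), and the interval of the fold ran from 0.789 to 0.945. Without knockdown array 3 it was -0.25 and passed (limma adjusted p = 0.0392). Tnrc6c passed in only this 1 of the 6 fits with 1 array left out, where the limma adjusted p reached 0.278.

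**Figure D2:**
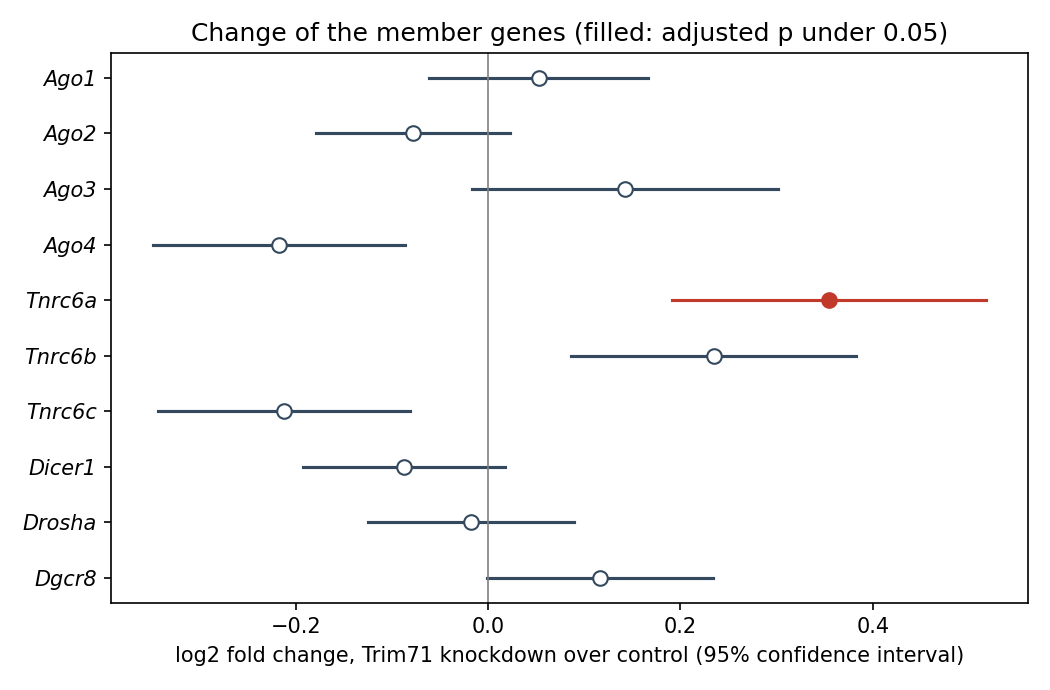
Log2 fold change of each member, Trim71 knockdown over control, with its 95% confidence interval from limma. Tnrc6a at 0.35 is the 1 member with a filled symbol, and the intervals of Tnrc6b, Tnrc6c and Ago4 leave out 0 although their adjusted p-values were over 0.05.

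The paralogs were then compared within each array, which asks whether they changed unequally. The level of 1 probe set cannot be set against that of another, so only the change of such a difference between the groups carries meaning. Tnrc6a minus Tnrc6c was 0.53, 0.54 and 0.59 log2 units on the knockdown arrays and -0.05, 0.07 and -0.05 on the control arrays. The value of Tnrc6a minus Tnrc6c was higher by 0.57 in knockdown cells (95% confidence interval 0.45 to 0.69), against an SD of 0.03 in knockdown cells and 0.07 in control cells. Left out in turn, no array took the value outside 0.55 to 0.61. Tnrc6b minus Tnrc6c was 0.33, 0.45 and 0.41 in knockdown cells and -0.11, -0.01 and -0.04 in control cells, a change of 0.45 (interval 0.32 to 0.57). Tnrc6a minus Tnrc6b changed by 0.12 (interval 0.00 to 0.24), averaging 0.16 ± 0.05 in knockdown cells and 0.04 ± 0.05 in control cells (SD, n = 3 each). Each of these 3 differences had an exact two-sided permutation p of 0.1, the smallest possible, and 0.112 when adjusted over the 9 paralog pairs.

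**Figure D3:**
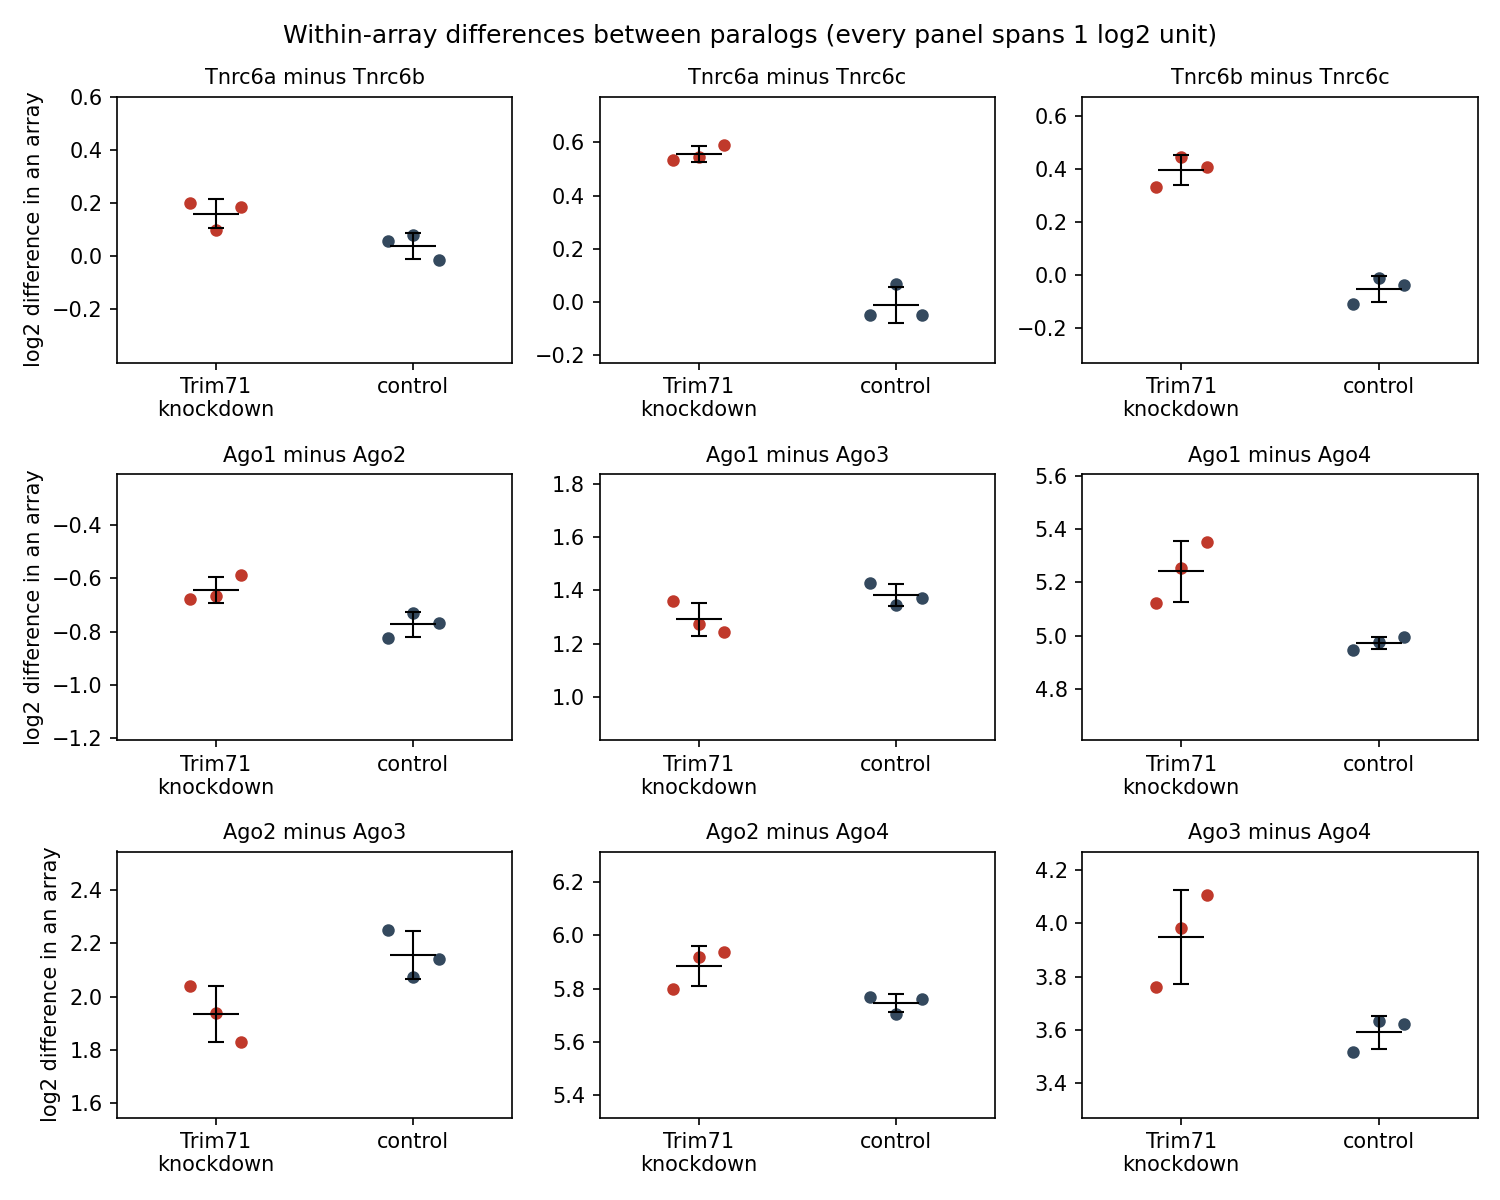
Difference in log2 expression between paralogs on each array, knockdown arrays in red on the left and control arrays in dark blue on the right, with group means and SD. Every panel spans 1 log2 unit. The panels of Tnrc6a minus Tnrc6c and Tnrc6b minus Tnrc6c show the largest differences between group means, 0.57 and 0.45, and Ago1 minus Ago3 is the 1 pair whose groups overlap.

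Among the Argonautes 0 of 4 were called by limma, and 1, Ago4, had an unadjusted p under 0.05. Ago2, the mouse Argonaute that can slice its target, read 10.05, 10.04 and 10.03 in knockdown cells and 10.13, 10.11 and 10.11 in control cells. The SD was 0.01 in each group and the groups did not overlap. The difference was -0.08 ± 0.043 SE (limma adjusted p = 0.404), and its interval allows a fold between 0.884 and 1.02. The dimmer of the 2 Ago2 probe sets gave 8.94, 9.00 and 9.00 in knockdown cells and 9.07, 9.07 and 9.08 in control cells. Its difference of -0.09 ± 0.045 SE had the same sign and did not pass either (limma adjusted p = 0.334, fitted over all probe sets with 1 symbol).

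Ago1, which lacks the strong slicing activity of Ago2, read 9.37, 9.38 and 9.44 in knockdown cells and 9.31, 9.38 and 9.34 in control cells. The values overlapped, with a difference of 0.05 ± 0.049 SE (limma adjusted p = 0.652). Ago3, its neighbour on the chromosome, read 8.01, 8.11 and 8.20 in knockdown cells and 7.88, 8.04 and 7.97 in control cells. These groups overlapped as well, and the difference was 0.14 ± 0.068 SE (limma adjusted p = 0.319).

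Ago4, the next gene in the row, gave a dim signal. It read 4.25, 4.12 and 4.09 in knockdown cells and 4.36, 4.41 and 4.35 in control cells, without overlap. The difference was -0.22 ± 0.056 SE (limma adjusted p = 0.0739). Only 14.7% of genes had a lower mean level, and detection calls were not used here, so whether Ago4 was detected is not known. The difference may be understated, or may not come from Ago4 RNA at all. After a repeated quantile normalization the difference was -0.24 and passed (limma adjusted p = 0.0352). It passed in only this 1 of the 12 alternatives run for Ago4, where the limma adjusted p reached 0.241.

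Within arrays, Ago3 minus Ago4 was 3.76, 3.98 and 4.11 on the knockdown arrays and 3.52, 3.63 and 3.62 on the control arrays, a change of 0.36 (interval 0.06 to 0.66). Ago1 minus Ago4 changed by 0.27 (interval 0.08 to 0.46) and Ago2 minus Ago3 by -0.22 (interval -0.44 to 0.00). The other changes were 0.14 for Ago2 minus Ago4, 0.13 for Ago1 minus Ago2 and -0.09 for Ago1 minus Ago3. The groups overlapped for Ago1 minus Ago3 (exact permutation p = 0.2, the same when adjusted over 9 pairs), and the other 5 Argonaute pairs had an exact permutation p of 0.1 (0.112 when adjusted). The Ago4 signal is dim and enters 3 of these 6 pairs.

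The 3 precursor-processing genes gave small differences, and 0 of 3 passed in limma, with 0 at an unadjusted p under 0.05. Dicer1 read 10.40, 10.43 and 10.40 in knockdown cells and 10.46, 10.51 and 10.51 in control cells. The groups did not overlap, and the difference of -0.09 ± 0.045 SE allows a fold between 0.875 and 1.01 (limma adjusted p = 0.358). Drosha read 10.22, 10.16 and 10.22 in knockdown cells and 10.20, 10.22 and 10.23 in control cells, which overlap. Its difference of -0.02 ± 0.046 SE was the smallest of the 10 (limma adjusted p = 0.893, fold interval 0.917 to 1.06). Dgcr8 read 9.19, 9.24 and 9.28 in knockdown cells and 9.07, 9.12 and 9.16 in control cells. Every knockdown value was above every control value by a narrow margin, and the difference of 0.12 ± 0.050 SE did not pass (limma adjusted p = 0.266). Drosha is known to cut a hairpin within the Dgcr8 transcript, and the hairpin gene Mir1306 had no probe set with 1 symbol.

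**Figure D4:**
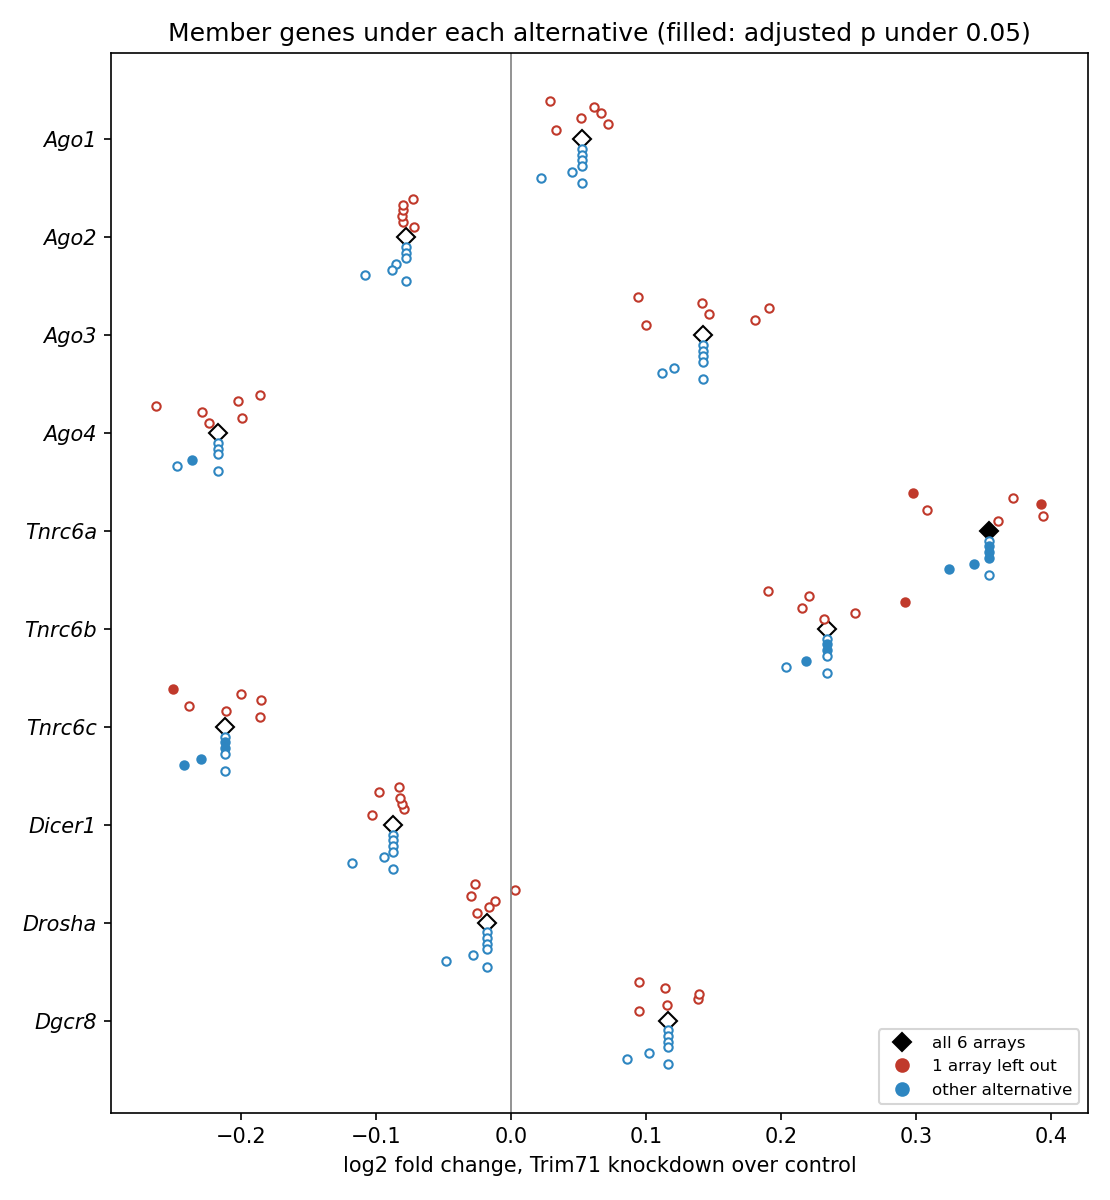
Log2 fold change of each member with all 6 arrays (black diamonds), with 1 array left out (red, above) and under the other alternatives (blue, below). Filled symbols have an adjusted p under 0.05. Tnrc6a lies between 0.30 and 0.39 throughout, and Drosha is the 1 member whose values cross 0.

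Other genes of the microRNA pathway were examined in 6 lists by role, and 60 of 64 entries, counting Mir1306, were measured. Of the 60, 2 rose and 2 fell, against 3.39% and 2.15% of all genes. The median difference was 0.03 over the 60 and 0.00 over all genes.

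Argonaute loading and cofactor genes rose for 2 of 18 and fell for 0, against 3.39% and 2.15% of all genes. Trim32, a relative of Trim71 that binds Argonaute, read 7.59, 7.46 and 7.73 in knockdown cells and 6.95, 7.10 and 7.19 in control cells. It rose by 0.51 ± 0.086 SE (limma adjusted p = 0.0178), the largest difference of the 60 in size, and lost the call without control array 1 or 2 (limma adjusted p of 0.0771 and 0.0729). Mov10, an RNA helicase that associates with Argonaute, read 11.74, 11.77 and 11.78 in knockdown cells and 11.57, 11.55 and 11.57 in control cells. It rose by 0.20 ± 0.044 SE (limma adjusted p = 0.0456), and with any 1 array left out the adjusted p was between 0.0562 and 0.18. Ipo8, an importin that binds Argonaute, was at 0.12 and did not pass.

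Genes of microRNA tailing, turnover and let-7 control fell for 2 of 11 and rose for 0, against 2.15% and 3.39% of all genes. Lin28a, which blocks the maturation of let-7, read 9.29, 9.30 and 9.31 in knockdown cells and 9.57, 9.54 and 9.58 in control cells, without overlap. It fell by 0.26 ± 0.044 SE on the log2 scale (limma adjusted p = 0.0178). Its paralog Lin28b read 7.56, 7.54 and 7.64 in knockdown cells and 7.84, 7.83 and 7.78 in control cells, and fell by 0.24 ± 0.050 SE on that scale (limma adjusted p = 0.0383). Of the 6 fits with 1 array left out, both genes were called in the 1 without knockdown array 3, and in the other 5 the limma adjusted p reached 0.0944 for Lin28a and 0.162 for Lin28b. Tut7, a uridylyltransferase that tails let-7 precursors together with Lin28 proteins, was at 0.25 ± 0.075 SE (limma adjusted p = 0.109).

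The other 4 lists had 0 called in limma of 31 measured genes, with 6 at an unadjusted p under 0.05, together a share like the 19.0% of all genes. The 6 were unevenly spread. They were 3 of 3 partners of Dicer1 and 2 of 11 partners of Drosha and nuclear export genes. The rest were 1 of 14 deadenylation and decapping genes and 0 of 3 PIWI genes. Partners of Drosha and nuclear export genes, 11 measured, were led by Safb2 at 0.18 (limma adjusted p = 0.0782), a nuclear RNA-binding protein, and Khsrp at 0.13, which binds microRNA precursors. Xpo5, the exporter of precursor hairpins, was at 0.06 (limma adjusted p = 0.575). The 3 partners of Dicer1 were Prkra at -0.30 ± 0.094 SE (limma adjusted p = 0.132), Tarbp2 at -0.15 and the RNA-editing enzyme gene Adar at 0.16. None of these 3 had overlapping groups, as was so for 25.5% of all genes. Prkra passed without knockdown array 3 (-0.38, limma adjusted p = 0.0466). That was 1 of the 6 fits with 1 array left out, where its limma adjusted p reached 0.334. The listed deadenylation and decapping genes that act after TNRC6, 14 measured and not every subunit of these complexes, lay between -0.12 (Cnot9) and 0.13 (Pan3), with Edc4 at 0.12. Cnot6, a deadenylase subunit that was not in this list, was at 0.29 and is described below. The PIWI relatives of the Argonautes, known from the germline, were Piwil1 at 0.05, Piwil2 at 0.07 and Piwil4 at -0.16, with overlapping groups in each.

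**Figure D5:**
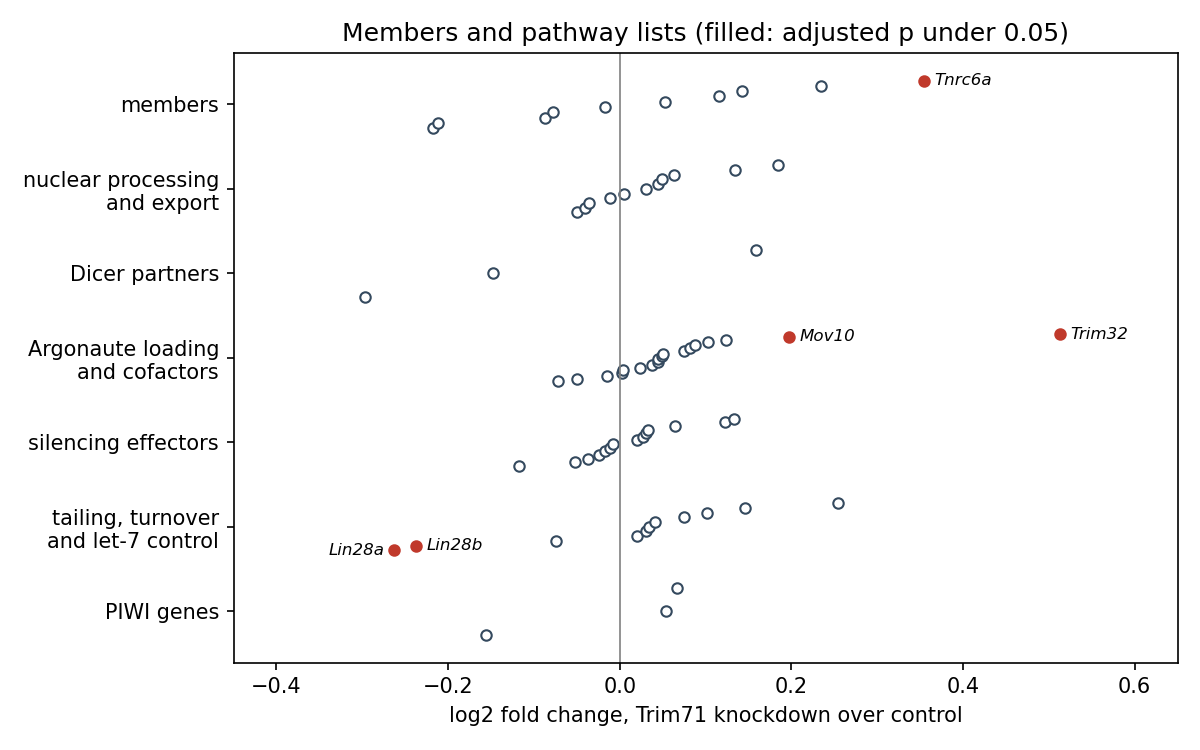
Log2 fold change, Trim71 knockdown over control, of the 10 members and of the genes in each pathway list. Filled symbols have an adjusted p under 0.05 and are named. Tnrc6a, Mov10 and Trim32 lie above 0 and Lin28a and Lin28b below it.

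The genes whose pattern was most like that of Tnrc6a over the 6 arrays were Cnot6, a catalytic deadenylase of the CCR4-NOT complex, with Pearson's r = 0.998, Esrp2, an epithelial splicing regulator, with r = 0.995, and Cish, a target and inhibitor of cytokine signalling, with r = 0.995. They were the highest of 9281 genes with an SD over the arrays of at least 0.1, of which 889 had an r over 0.9. The 6 points share their arrays and the same group difference, so the values are a description. Cnot6 read 9.70, 9.77 and 9.87 in knockdown cells and 9.50, 9.57 and 9.41 in control cells, the same order of arrays as for Tnrc6a. Its difference was 0.29 ± 0.064 SE (limma adjusted p = 0.0457), which did not pass with any 1 array left out (0.0585 to 0.155). Esrp2 rose by 0.51 ± 0.096 SE (limma adjusted p = 0.0257) and passed in 2 of the 6 fits with 1 array left out. Cish rose by 0.28 ± 0.062 SE (limma adjusted p = 0.0447) and passed in 0 of these 6 fits.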

How the data were processed

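RNA (100 ng of total RNA per the labels' protocols) of 3 Trim71 knockdown and 3 control samples was measured on single-colour Affymetrix arrays. The deposited values are log2 expression per probe set, made by the authors with RMA and the affy package per the submitters' processing notes, without a version given in the sources used here. RMA quantile normalizes the arrays, so a shift shared by most genes cannot be seen. Detection calls were not used here, and the number of arrays limits the precision.

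Of 34760 probe sets, 21640 had 1 gene symbol in GEO's platform annotation, 1321 had several and 11799 were unnamed here. The probe set with the highest mean stood for each of 19937 genes, and all 10 members matched RefSeq by Entrez identifier. Group was the only term in limma 3.58.1 (R 4.3.3), tested on simulated data first, with Benjamini-Hochberg adjustment over all genes. The simulated data held 200 genes changed 1.5-fold or 2-fold. Tnrc6a, the most changed member, rose 1.28-fold, so the simulation does not show how often changes of the members' size are found. Paralog differences were compared by exact two-sided permutation, with intervals from the pooled variance. Python 3.11.15, pandas 2.3.3 and matplotlib 3.10.9 made tables and plots.

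The members and lists were chosen with earlier results of these data known. Named besides the members and Trim71 are the called genes of each list, its 3 with the largest moderated statistic, and the 3 genes most like a called member. The alternatives left out each array in turn, took the replicate number as a block, or used brighter probe sets, a trended and robust prior, the mean of a gene's probe sets, repeated quantile normalization, median centring or all probe sets.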

Additional observations from a re-analysis of the deposited data

How the results depend on the processing

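With 1 array left out the counts called were 0 to 2 higher and 0 to 1 lower for the members, 148 to 603 higher and 101 to 699 lower for all genes, and 0 to 1 higher and 0 to 3 lower for the pathway lists. In brighter probe sets alone, where Ago4, Piwil1 and Piwil4 were not tested, 2 members were higher and 1 lower, with 1131 higher and 771 lower of the 9925 genes tested there and 7 higher in the pathway lists. The trended and robust prior gave 2 members higher and 1 lower, 1213 and 854 of all genes, and 5 higher in the pathway lists. Repeated quantile normalization gave 2 members higher and 2 lower, with 763 of all genes lower. Median centring gave 1 member lower and 1 pathway gene higher. With all probe sets tested, 0 members were called in limma (4 at an unadjusted p under 0.05), 266 of 34760 probe sets were higher and 134 lower, and 0 pathway genes were called (10 of 60 unadjusted). With the replicate number as a block, 0 members were called (4 unadjusted, Tnrc6a at an adjusted p of 0.115), 171 of all genes were higher and 108 lower, and 1 pathway gene was higher and 0 lower. The deviations of same-numbered arrays correlated at -0.02, -0.15 and -0.24, and those of differently numbered arrays at -0.23 to 0.28. No pairing by number was seen. Deviations within a group sum to 0, so 3 arrays per group cannot settle whether the numbers pair the samples. Trim71 stayed called under all 13 alternatives, between -1.55 and -1.51, and all 9 paralog differences kept their sign in the 9 alternatives run for each. Some of these signs were fixed in advance. The replicate block leaves every paralog difference unchanged, and the mean of a gene's probe sets changes only the pairs with Ago2. The replicate block, brighter probe sets, the trended and robust prior and all probe sets gave each tested gene the same difference as the main fit. The mean of a gene's probe sets did so for genes with 1 probe set. In those settings only the side of the threshold could move, not the direction. Of 129 alternative values of the members, 112 kept their direction and their side of the threshold, 6 lost a call (all Tnrc6a), 10 gained one (Tnrc6b, Tnrc6c or Ago4) and 1 turned, Drosha at 0.0033 without knockdown array 2 (-0.030 to 0.0033 with 1 array left out). Of 271 values of the other named genes 50 lost a call, 8 gained one and 1 turned, Piwil2 at -0.0035 without knockdown array 3 (-0.0035 to 0.12 with 1 array left out). The causes of these moves were not tested.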
